A study of Rattus norvegicus with 12 samples.

Results

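The genes described here are the rat MHC class II chains RT1-Da, RT1-Db1, RT1-Ba and RT1-Bb, the peptide-loading chains RT1-DMa and RT1-DMb, the invariant chain Cd74 and the class II transactivator Ciita. Their probes were taken from the array by gene name, which found 10 probes of 5 genes among 41012 probes. RT1-DMa and Ciita, which the array lists under the older names Hla-dma and C2ta, were added by accession, giving 12 probes of 7 of the 8 genes. No probe was matched to RT1-DMb. Of the 12 probes, 11 passed the filter on dim signal, and each of the 7 genes kept at least 1 probe among the 24298 genes tested.

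Liver RNA was compared in 4 groups of 3 single-colour arrays. All animals were adrenalectomized Sprague-Dawley rats aged 8 to 10 weeks, so every group lacked its own adrenal glucocorticoids, and the females were in diestrus 1. Males and females received phosphate-buffered saline (vehicle) or dexamethasone, a synthetic glucocorticoid, at 1 mg/kg into the peritoneum, and liver was taken 6 h later. The study asks how glucocorticoids act on hepatic genes in the 2 sexes. Each array carried RNA pooled in equal amounts from 3 of the 9 animals of a group, so the p-values measure the spread between pools and not between animals. The number of arrays limits the precision. The 10 hepatocyte markers listed were well above background on every array.

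The arrays lay on 5 slides. Replicate 3 of every group was on slide 5, where 53 to 61.8% of the spots were well above background, against 62.7 to 69.7% on the 8 arrays of slides 1 to 4. Of the other arrays, male vehicle 2 shared slide 1 with male dexamethasone 1, and both remaining female vehicle arrays shared slide 2 with male dexamethasone 2. Male vehicle 1 was alone on slide 3, and female dexamethasone 1 and 2 made up slide 4. Values with the slides as a block and within a slide are therefore given for the members, and for genes of the pathway lists where the fixed block ended a call. As liver is a mixture of cells, fewer cells of a type and less RNA per cell cannot be told apart in any of the results.

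MHC class II molecules are pairs of an alpha and a beta chain that display peptides from the endosomes of macrophages, dendritic cells and B cells to CD4+ T cells. The chains assemble with the invariant chain, which blocks the peptide groove until it is cut away and DM exchanges its last fragment for a peptide. Ciita is recruited to class II promoters by factors bound at a conserved pair of elements, the X and Y boxes, and interferon gamma is its best-known inducer. In liver, Kupffer cells and other resident leukocytes are the main cells that carry class II.

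The promoters of the members are shown because these genes are known for shared control through the X and Y boxes. RefSeq (assembly GRCr8) gave the 300 bases around the gene start, 250 before and 50 after, for 6 members, while Ciita and RT1-DMb had no entry. The 5 printed below are those of the 4 genes that were lower after dexamethasone in both sexes and of RT1-DMa, which was not. RT1-Da lies at chr20:4515165-4515464 on the plus strand, RT1-Db1 at chr20:4560113-4560412 on the minus strand, RT1-Bb at chr20:4604069-4604368 on the minus strand, RT1-DMa at chr20:4712286-4712585 on the minus strand and Cd74 at chr18:56526956-56527255 on the plus strand. Capitals mark matches on either strand to the letters ATTGG, the Y core, and to ACNGATG, the X core, where N is any base, and both were spelled out after these promoters had been read.
RT1-Da: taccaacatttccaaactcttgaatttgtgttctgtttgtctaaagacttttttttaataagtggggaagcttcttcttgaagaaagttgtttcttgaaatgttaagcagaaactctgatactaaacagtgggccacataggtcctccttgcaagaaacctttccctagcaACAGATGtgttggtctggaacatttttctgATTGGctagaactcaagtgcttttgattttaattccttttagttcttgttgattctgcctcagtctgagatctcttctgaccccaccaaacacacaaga
RT1-Db1: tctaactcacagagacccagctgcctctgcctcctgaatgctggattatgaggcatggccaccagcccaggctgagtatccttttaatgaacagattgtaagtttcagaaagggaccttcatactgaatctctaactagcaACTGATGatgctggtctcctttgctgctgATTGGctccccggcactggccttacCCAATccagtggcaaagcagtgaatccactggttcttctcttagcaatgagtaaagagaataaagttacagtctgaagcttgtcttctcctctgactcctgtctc
RT1-Bb: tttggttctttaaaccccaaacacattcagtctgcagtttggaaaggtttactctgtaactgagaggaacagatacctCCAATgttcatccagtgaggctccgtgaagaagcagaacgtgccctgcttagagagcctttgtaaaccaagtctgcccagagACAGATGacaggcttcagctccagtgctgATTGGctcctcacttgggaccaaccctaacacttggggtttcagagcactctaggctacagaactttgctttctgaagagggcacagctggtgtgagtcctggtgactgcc
RT1-DMa: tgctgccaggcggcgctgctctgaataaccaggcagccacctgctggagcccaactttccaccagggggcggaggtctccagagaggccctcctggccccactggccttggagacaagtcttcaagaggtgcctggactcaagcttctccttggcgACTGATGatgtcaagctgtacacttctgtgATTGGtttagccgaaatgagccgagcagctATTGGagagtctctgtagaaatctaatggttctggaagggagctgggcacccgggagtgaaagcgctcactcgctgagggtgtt
Cd74: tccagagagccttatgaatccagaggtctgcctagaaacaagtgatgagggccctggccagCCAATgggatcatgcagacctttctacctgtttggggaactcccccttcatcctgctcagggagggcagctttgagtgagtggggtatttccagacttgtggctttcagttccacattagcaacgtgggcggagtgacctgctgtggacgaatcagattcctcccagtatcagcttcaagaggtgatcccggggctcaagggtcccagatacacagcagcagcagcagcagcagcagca

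The Y core was found in all 6 member promoters, searched on both strands, and in 37.5% of the 33469 promoters of the table. The X core was found in 4 of the 6 (RT1-Da, RT1-Db1, RT1-Bb and RT1-DMa) and in 10.2% of all promoters. In these 4 the X core was followed by the Y core after 22 or 23 letters, and 0.158% of all promoters had the same order with 10 to 30 letters between. The Y core began 49 bases upstream of the gene start in RT1-Da, 80 in RT1-Db1, 61 in RT1-Bb and 64 in RT1-DMa, whose second copy began at 34. RT1-Db1 and RT1-Bb each had a further Y core on the opposite strand, 55 and 172 bases upstream. RT1-Ba had a Y core 43 bases upstream and Cd74 one on the opposite strand 189 bases upstream, and neither had a match to the X core. Only the letters ACNGATG were searched, so a missing match does not show that a promoter lacks an X box. As both cores were spelled out after reading these promoters, the member counts are no test against all promoters. The X and Y matches did not overlap. The palindromic glucocorticoid response element GNACANNNTGTNC was in none of the 6 windows and in 0.439% of all promoters. These matches describe the letters of the windows and were not tied to binding. RT1-DMa, which was not called after dexamethasone, had the same pair of cores as 3 chains that were.

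Dexamethasone was followed by lower signal of the DR-type chains, of RT1-Bb and of the invariant chain in both sexes. All levels below are log2 intensities relative to the 75th percentile of the array, and can be compared between groups but not between probes. Differences are dexamethasone minus vehicle on the log2 scale ± SE, with 3 arrays per group, and calls rest on limma's fit over all 24298 genes, with p-values adjusted by Benjamini and Hochberg's method and a threshold of 0.05. By that rule 4 of the 7 genes were lower in males, where 10.8% of all genes were, and 5 of 7 in females, where 12.6% were. None was higher, against 9.34% of all genes in males and 11.7% in females. The median difference of the 7 genes was -1.39 in males and -1.50 in females, against 0.01 and -0.08 over all genes.

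**Figure D1:**
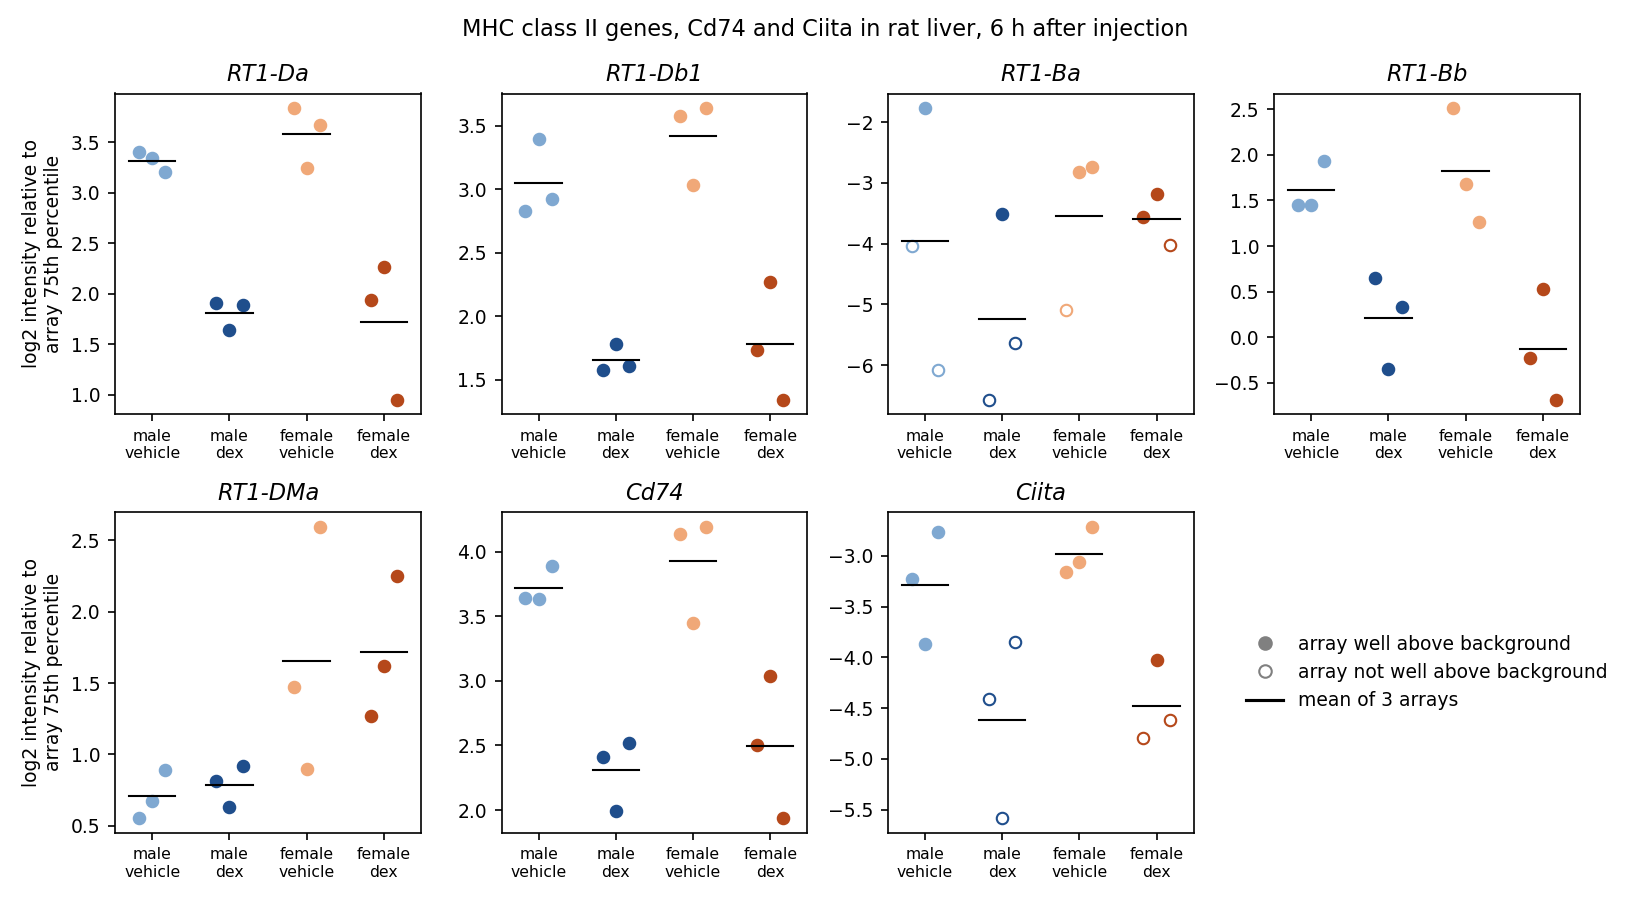
Signal of the 7 measured genes on each of the 12 arrays, as log2 intensity relative to the array's 75th percentile, with 1 panel per gene and its own axis, circles for arrays (open where the probe was not well above background) and bars for the mean of 3. In RT1-Da, RT1-Db1, RT1-Bb and Cd74 every dexamethasone array lies below every vehicle array of the same sex, and in RT1-DMa the groups of a sex overlap.

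RT1-Da encodes the alpha chain of the DR-type molecule. In males its brighter probe read 3.41, 3.34 and 3.20 after vehicle and 1.91, 1.64 and 1.89 after dexamethasone. In females it read 3.84, 3.24 and 3.67 after vehicle and 1.94, 2.27 and 0.95 after dexamethasone. The groups did not overlap in either sex, which held for 18.5% of all genes in males and 23% in females in that direction, and female dexamethasone 3 was the lowest of all 12 arrays. The difference was -1.50 ± 0.30 in males (2.83-fold lower, adjusted p = 0.00553) and -1.86 ± 0.30 in females (3.63-fold lower, adjusted p = 0.00159). The dimmer RT1-Da probe, when every probe was fitted singly, gave -1.52 ± 0.47 in males (adjusted p = 0.0455) and -1.47 ± 0.47 in females (adjusted p = 0.0460).

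RT1-Db1 encodes the partner beta chain and had 3 probes, shown here because their letters differ and they did not all give a call.
RT1-Db1 A_44_P130513: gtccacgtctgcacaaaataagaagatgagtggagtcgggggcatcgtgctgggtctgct
RT1-Db1 A_44_P130516: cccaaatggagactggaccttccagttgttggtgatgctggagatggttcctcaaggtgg
RT1-Db1 A_44_P139882: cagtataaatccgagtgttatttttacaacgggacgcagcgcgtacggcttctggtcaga

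The brightest, A_44_P130513, read 2.83, 3.39 and 2.92 in vehicle males and 1.58, 1.78 and 1.61 in dexamethasone males. It read 3.58, 3.03 and 3.64 in vehicle females and 1.74, 2.27 and 1.34 in dexamethasone females. Every dexamethasone array was below every vehicle array of its sex. RT1-Db1 was 2.63-fold lower in males (-1.39 ± 0.26, adjusted p = 0.00397) and 3.11-fold lower in females (-1.63 ± 0.26, adjusted p = 0.00153). The second probe fell by 1.49 ± 0.34 in males (adjusted p = 0.0111) and by 1.36 ± 0.34 in females (adjusted p = 0.0159). The third, A_44_P139882, was well above background on 7 of 12 arrays. It gave -1.21 ± 0.64 in males (adjusted p = 0.238) and -1.98 ± 0.64 in females (adjusted p = 0.0476), where its groups overlapped. Over single probes of the 7 genes, 6 of 11 were lower in males, with 10.5% of all probes, and 8 of 11 in females, with 12% of all probes.

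**Figure D2:**
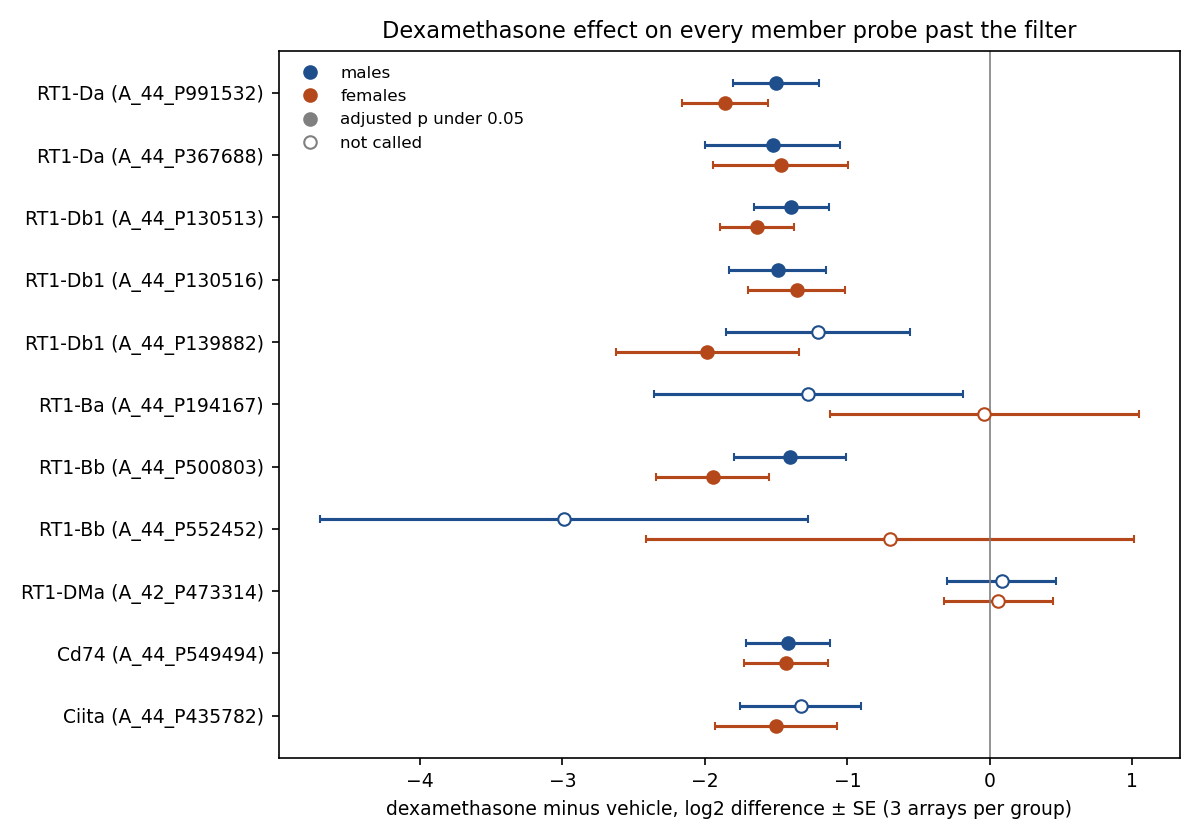
Dexamethasone minus vehicle for each of the 11 member probes past the filter, as log2 difference ± SE from the fit of every probe singly, blue for males and red for females, filled where the adjusted p was under 0.05. The RT1-D, Cd74 and brighter RT1-Bb probes lie between -1.21 and -1.98, the RT1-DMa probe lies near 0, and the dimmer RT1-Bb probe has the widest errors.

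RT1-Bb, the beta chain of the DQ-type molecule, was read by 2 probes that did not give the same picture. The brighter one, A_44_P500803, was well above background on every array.
RT1-Bb A_44_P500803: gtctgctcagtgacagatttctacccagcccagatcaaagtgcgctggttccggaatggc

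This probe read 1.45, 1.45 and 1.93 in vehicle males and 0.65, -0.35 and 0.33 in dexamethasone males. In females it read 2.51, 1.68 and 1.27 after vehicle and -0.23, 0.53 and -0.68 after dexamethasone. The groups of a sex did not overlap, and RT1-Bb was 2.64-fold lower in males (-1.40 ± 0.40, adjusted p = 0.0301) and 3.85-fold lower in females (-1.95 ± 0.40, adjusted p = 0.00565). The male call was lost when any 1 of 5 arrays was left out, with adjusted p = 0.0565, 0.0588 and 0.0998 without male vehicle 1, 2 and 3 and adjusted p = 0.107 and 0.0636 without male dexamethasone 2 and 3. It was lost in males and females with slide as a fixed block (-1.47, adjusted p = 0.0836, and -2.48, adjusted p = 0.0684).

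The second RT1-Bb probe, A_44_P552452, swung by several log2 units between arrays of one group. It read -0.28, 1.36 and -4.75 in vehicle males and -6.59, -0.49 and -5.57 in dexamethasone males. In females it read -0.85, -0.42 and 1.83 after vehicle and -0.49, -0.25 and -0.80 after dexamethasone. The 3 arrays with the low readings, male vehicle 3 and male dexamethasone 1 and 3, were the ones on which it was not well above background. The brighter RT1-Bb probe was not low on those 3 arrays. The differences of the second probe were -2.99 ± 1.71 in males (adjusted p = 0.274) and -0.70 ± 1.71 in females (adjusted p = 0.799).

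RT1-Ba, the alpha chain of the DQ-type molecule, was near background. Its 2 probes cover the same stretch with different letters, 49 of the 60 letters of A_44_P194167 being matched in A_44_P128248. Capitals mark the letters with no match in the other probe.
RT1-Ba A_44_P194167: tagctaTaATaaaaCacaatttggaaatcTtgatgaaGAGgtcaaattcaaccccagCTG
RT1-Ba A_44_P128248: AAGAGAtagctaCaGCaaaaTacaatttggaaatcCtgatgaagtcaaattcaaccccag

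The first RT1-Ba probe was well above background on 6 of 12 arrays and the second on 1, so that the second did not pass the filter. A_44_P194167 read -4.04, -1.77 and -6.08 in vehicle males and -6.57, -3.51 and -5.63 in dexamethasone males. In females it read -5.09, -2.83 and -2.73 after vehicle and -3.56, -3.18 and -4.03 after dexamethasone. Its 3 lowest readings fell on the same 3 male arrays as those of the second RT1-Bb probe. RT1-Ba differed by -1.27 ± 1.09 in males (adjusted p = 0.490) and by -0.04 ± 1.09 in females (adjusted p = 0.982), with 95% confidence intervals from -3.68 to 1.13 and from -2.44 to 2.37. Differences of the size seen in the other chains lay inside both intervals. Class II genes are highly polymorphic, and the part that mismatches between a probe and the alleles of these animals play in the signal was not tested.

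**Figure D3:**
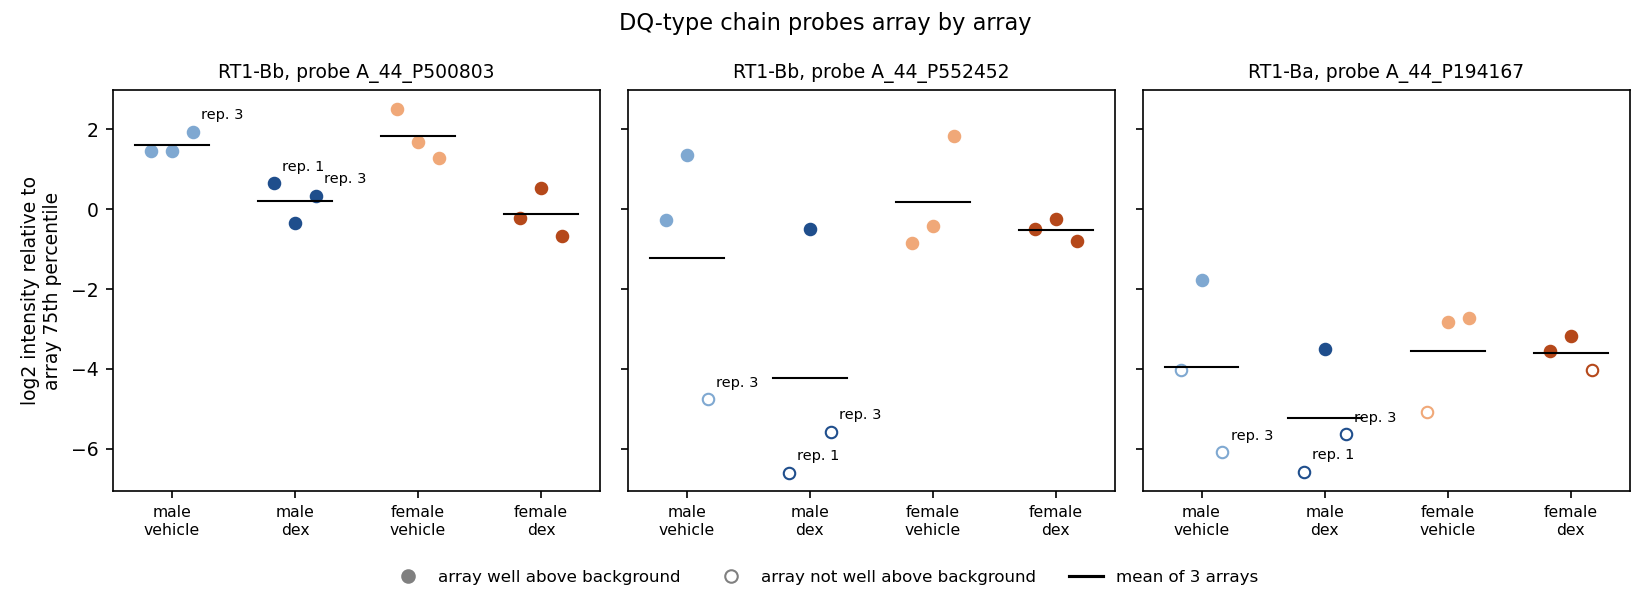
The brighter and the dimmer RT1-Bb probe and the brighter RT1-Ba probe on each array, as log2 intensity relative to the array's 75th percentile on a common axis, with open circles where the probe was not well above background, bars for the mean of 3 arrays and replicate numbers at the 3 low male arrays. The second RT1-Bb probe and the RT1-Ba probe both have their 3 lowest readings on male vehicle 3 and male dexamethasone 1 and 3, where the brighter RT1-Bb probe is not low.

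RT1-DMa, the alpha chain of the DM molecule that loads peptides onto class II, did not follow the other genes. It read 0.55, 0.68 and 0.89 in vehicle males and 0.82, 0.63 and 0.92 in dexamethasone males. In females it read 1.47, 0.90 and 2.60 after vehicle and 1.27, 1.62 and 2.25 after dexamethasone. The differences were 0.08 ± 0.38 in males (95% confidence interval -0.77 to 0.93, adjusted p = 0.922) and 0.06 ± 0.38 in females (-0.79 to 0.91, adjusted p = 0.928). Both intervals leave out falls as large as those estimated for RT1-Da, RT1-Db1, RT1-Bb and Cd74.

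Cd74 encodes the invariant chain, the chaperone of newly made class II dimers. It read 3.64, 3.64 and 3.89 in vehicle males and 2.41, 1.99 and 2.52 in dexamethasone males. Females read 4.14, 3.45 and 4.20 after vehicle and 2.50, 3.04 and 1.94 after dexamethasone. No array overlapped with the other treatment of its sex. Cd74 was 2.67-fold lower in males (-1.42 ± 0.30, adjusted p = 0.00705) and 2.70-fold lower in females (-1.43 ± 0.30, adjusted p = 0.00611). Without slide 5 the female difference was -1.02 (adjusted p = 0.0511) and the male one -1.44 (adjusted p = 0.0268), an alternative chosen after seeing the data.

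Ciita, the transactivator on which expression of class II chains depends, was dim. It was well above background on 3 of 3 arrays of both vehicle groups, on 0 of 3 in dexamethasone males and on 1 of 3 in dexamethasone females. Readings in males were -3.23, -3.87 and -2.76 after vehicle and -4.41, -5.58 and -3.85 after dexamethasone, the highest of the latter lying just above the lowest of the former. In females they were -3.16, -3.07 and -2.71 after vehicle and -4.80, -4.03 and -4.62 after dexamethasone, without overlap. Ciita fell by 1.50 ± 0.43 in females (adjusted p = 0.0277). In males the measured difference was -1.33 ± 0.43 (95% confidence interval -2.27 to -0.38, adjusted p = 0.0516) and was not called. Over the alternatives the male difference ranged from -1.71 to -0.24. A value of 1.85-fold lower was taken from the lowest signal that was well above background on each dexamethasone array. That value has no error attached, so it sets no lower limit on the male fall. The female call was lost without female vehicle 1, 2 or 3 (adjusted p = 0.0547, 0.0647 and 0.0698) and without female dexamethasone 1 or 3 (adjusted p = 0.0948 and 0.0716). With normexp background correction and quantile normalization the female difference was -0.26 (adjusted p = 0.150).

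The slides moved the size of the female differences more than that of the male ones. With slide as a fixed block, a fit in which male vehicle 1 and female dexamethasone 1 and 2, on slides with no other group, add nothing to a difference between treatments, the male differences were -1.39 for RT1-Da, -1.47 for RT1-Db1 and -1.32 for Cd74. Each of these male differences was called. The female ones were -2.74 for RT1-Da, -2.10 for RT1-Db1, -2.31 for Cd74 and -2.36 for Ciita. They rest on replicate 3 as the only female dexamethasone array, and Ciita was not well above background on it. Within slide 5, with 1 array per group and no test, RT1-Da differed by -1.31 in males and -2.72 in females, RT1-Db1 by -1.31 and -2.30, RT1-Bb by -1.60 and -1.95, and Cd74 by -1.37 and -2.26. Within slide 1, which held males only, the same 4 genes differed by -1.43, -1.82, -0.81 and -1.23. Ciita was not well above background on the dexamethasone arrays of these slides, and its differences within a slide are drawn in the figure but not given here. Where the groups of a sex did not overlap, the direction within a slide was fixed by that. With slide as a random block Ciita was also called in males (-1.16, adjusted p = 0.0306). That limma fit called 7749 of all genes in males, against 4895 in the main fit.

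**Figure D4:**
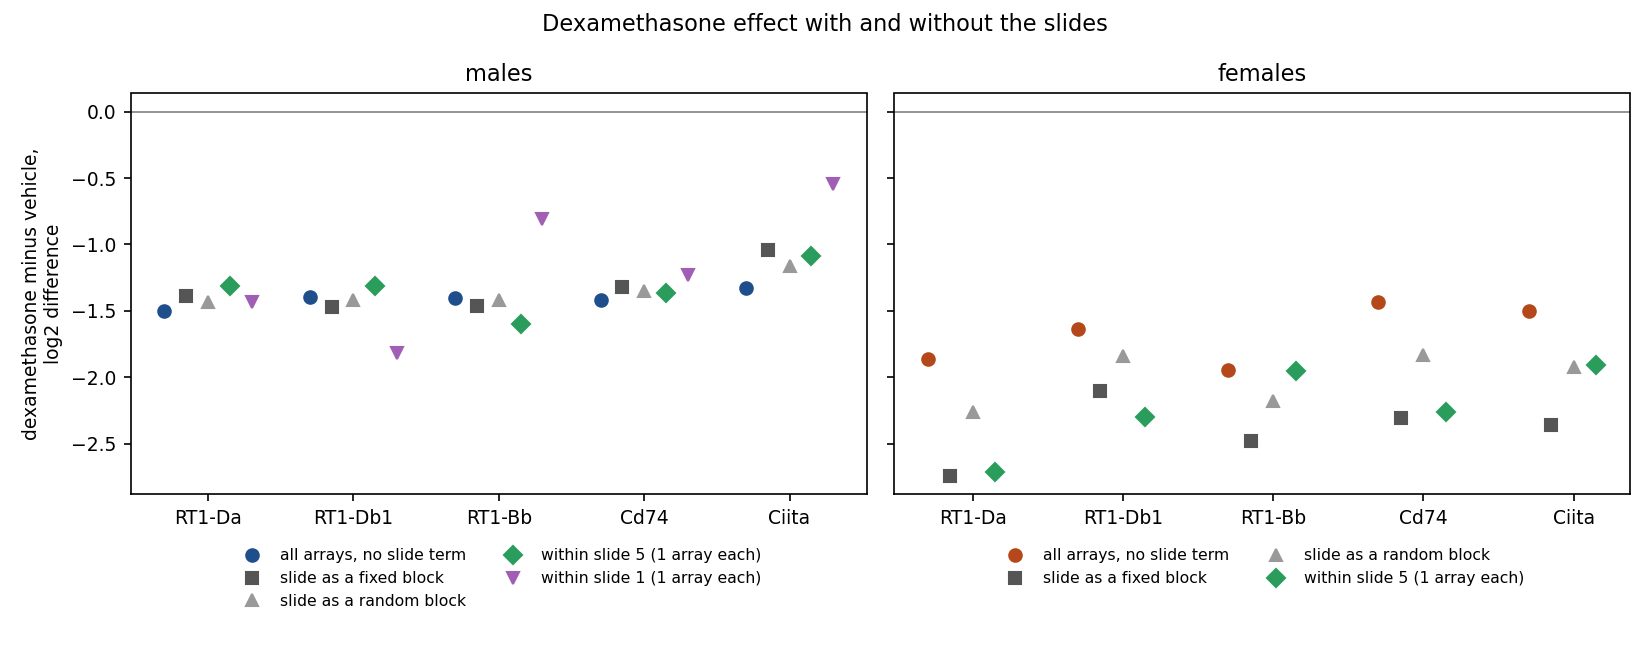
Dexamethasone minus vehicle, as log2 difference, for the 5 genes called lower in at least 1 sex, in males (left) and females (right), with no slide term, with slide as a fixed or random block, and within slide 5 or slide 1 with 1 array per group. Within slide 5 the values of the 4 genes other than Ciita lie between -1.31 and -1.60 in males and between -1.95 and -2.72 in females, and Ciita was not well above background on the dexamethasone arrays of slides 1 and 5.

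The dexamethasone effect was not shown to differ between the sexes for any member. The female minus male effect was called for 0 of 7 genes, with 0.0288% of all genes called in limma's fit, and 0 of 7 had an unadjusted p under 0.05. It was -0.36 for RT1-Da (95% confidence interval -1.30 to 0.58), -0.24 for RT1-Db1 (-1.06 to 0.58), -0.54 for RT1-Bb (-1.78 to 0.70), -0.02 for Cd74 (-0.94 to 0.91) and -0.17 for Ciita (-1.51 to 1.16). RT1-Ba, at 1.24 with an interval from -2.17 to 4.64, and RT1-DMa, at -0.02 with an interval from -1.23 to 1.18, were not called either. The slides moved these values: with slide as a fixed block they were -1.36 for RT1-Da (adjusted p = 0.266) and -0.98 for Cd74 (adjusted p = 0.384), both outside the intervals above, and -0.64 for RT1-Db1, -1.01 for RT1-Bb and -1.32 for Ciita. Without slide 5 they were 0.16 for RT1-Da, 0.13 for RT1-Db1, -0.64 for RT1-Bb, 0.42 for Cd74 and 0.15 for Ciita. None was called in either fit, and the size of the difference cannot be set apart from the slides.

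Females and males were also compared within a treatment. No member was called after vehicle, where 1.71% of all genes were, or after dexamethasone, where 2.31% were, in limma's fit. RT1-DMa was the 1 member with an unadjusted p under 0.05 in both comparisons. Its female arrays all lay above its male arrays after vehicle (0.90 to 2.60 against 0.55 to 0.89) and after dexamethasone (1.27 to 2.25 against 0.63 to 0.92). After vehicle the nearest arrays of the sexes almost touched. The shares of all genes with such a p or without overlap between the sexes were not counted, so neither trait sets RT1-DMa apart. The difference was 0.95 ± 0.38 after vehicle (adjusted p = 0.409) and 0.93 ± 0.38 after dexamethasone (adjusted p = 0.276), and thus did not pass the correction over all genes. For Cd74 the female minus male difference was 0.20 (95% confidence interval -0.45 to 0.86) after vehicle and 0.19 (-0.47 to 0.84) after dexamethasone.

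Regulators of class II transcription did not move as a group, while 2 of them fell in both sexes. Of 9 measured, 3 were lower in males and 2 in females and none was higher, with medians of 0.08 and -0.06. Over all genes 10.8% were lower in males and 12.6% in females in limma's fit, shares that stand beside the counts of every list below. Nfyb, a subunit of the NF-Y factor that binds the Y box, fell by 1.66 ± 0.16 in males (adjusted p = 8.48e-05) and by 1.31 ± 0.16 in females (adjusted p = 3.08e-04). Its partner subunits Nfya (0.34 in males and 0.22 in females) and Nfyc (0.35 and 0.52) were not called. Kat2b, an acetyltransferase that works with Ciita, fell by 1.17 ± 0.20 in males and 1.04 ± 0.20 in females, the latter with adjusted p = 0.0623 when slide was a fixed block. Spi1, the myeloid factor PU.1, was lower in males (-1.24 ± 0.28, adjusted p = 0.00969) and at -0.72 ± 0.28 in females (adjusted p = 0.0830), where it was called in 3 of 24 alternatives. Of the RFX complex at the X box, Rfxank (-0.41 and -0.51) and Rfxap (0.16 and 1.27) were not called, and Rfx5 was not well above background on any array.

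The interferon gamma pathway upstream of Ciita was lower at 4 of its 9 measured genes in each sex, and none was higher. Irf1, which binds the interferon-responsive promoter of Ciita, was 3.83-fold lower in males (-1.94 ± 0.45, adjusted p = 0.0117) and 4.02-fold lower in females (-2.01 ± 0.45, adjusted p = 0.00896). Ifngr2, the signalling chain of the receptor, fell by 1.19 ± 0.17 in males and 1.99 ± 0.17 in females. Jak2, the kinase attached to that chain, fell by 1.11 ± 0.16 in females and by 0.53 ± 0.16 in males (adjusted p = 0.0370), the male call being lost in 11 of 24 alternatives. Ifngr2 was higher in females than in males after vehicle by 1.13 ± 0.17 (limma adjusted p = 0.00758). After dexamethasone the sexes differed by 0.34 ± 0.17 in Ifngr2, which was not called, and neither was the sex difference of its fall (limma adjusted p = 0.348). Ifngr1, the ligand-binding chain, was at -0.01 in males and 0.73 in females and was not called. The ligand gene Ifng was not well above background on any array. The list's median was -0.90 in males and -0.85 in females.

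Genes of endosomal antigen processing, a list of proteases, their inhibitor Cst3 and other proteins of the endosome and lysosome, were mostly not called. Of 12 measured, 1 was lower in each sex, the asparaginyl endopeptidase Lgmn (-0.90 ± 0.26 in males, adjusted p = 0.0326, and -0.79 ± 0.26 in females, adjusted p = 0.0481). That call was lost in 7 of 24 alternatives in males and in 13 of 24 in females. Cathepsin S, Ctss, which makes the last cuts in the invariant chain, was at -0.24 ± 0.32 in males and -0.12 ± 0.32 in females, and cathepsin L, Ctsl, at -0.01 and -0.12.

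Among surface molecules for costimulation and antigen uptake, 3 of 8 measured genes were lower in males and 4 in females. Cd83, a marker of activated dendritic cells that holds class II at the surface, fell most among them, 7.03-fold in males (-2.81 ± 0.32, adjusted p = 1.99e-04) and 9.52-fold in females (-3.25 ± 0.32, adjusted p = 8.61e-05). The size of this fall depended on the processing. Over the 24 alternatives it was called throughout but ranged from -2.95 to -1.14 in males and from -3.85 to -1.37 in females. No Cd83 probe was well above background on more than 10 arrays. Fcgr1a, the high-affinity IgG receptor, fell by 1.72 ± 0.26 and 1.81 ± 0.26. Cd44, the signalling partner of surface Cd74, fell by 1.12 ± 0.16 and 1.75 ± 0.16, while Mif, their ligand, was at 0.15 and -0.42 and was not called. Cd40 fell by 1.00 ± 0.22 in females and was at -0.52 ± 0.22 in males (adjusted p = 0.133). The list's median was -0.56 in males and -0.76 in females, and -1.78 in females with slide as a fixed block. Cd80 and Cd86 were not well above background on any array.

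The class I pathway, which displays cytosolic peptides, was lower at 7 of 19 measured genes in males and at 4 in females, with none higher and medians of -0.60 and -0.32. The nonclassical chains RT1-N3 and RT1-M3-1 and the immunoproteasome subunit Psmb10 were lower in both sexes. RT1-N3 fell by 1.74 ± 0.33 in males and 1.35 ± 0.33 in females, RT1-M3-1 by 1.10 ± 0.22 and 1.33 ± 0.22, and Psmb10 by 0.78 ± 0.22 and 1.07 ± 0.22. RT1-S3 fell by 1.00 ± 0.19 in males and was at -0.39 ± 0.19 in females. The peptide transporter subunits Tap1 and Tap2 and tapasin, Tapbp, were lower in males (-1.65 ± 0.24, -0.60 ± 0.16 and -0.67 ± 0.20) and not called in females (-0.72, -0.32 and -0.49). Psmb9 was lower in females (-0.84 ± 0.27, adjusted p = 0.0476) and at -0.71 ± 0.27 in males (adjusted p = 0.0983). The calls of Tap2, Tapbp and Psmb10 in males were lost in 7, 8 and 7 of 24 alternatives and that of Psmb9 in females in 13. With slide as a fixed block the female calls of RT1-N3 (adjusted p = 0.0523), Psmb9 (adjusted p = 0.165) and, by the narrowest margin, RT1-M3-1 were lost and the list's female median was -0.10. Tap1 was called in females in 10 alternatives and Psmb9 in males in 8. The sex difference of the effect was called for 0 of these 19 genes. Beta-2-microglobulin, B2m, the constant partner of class I chains, was at -0.22 ± 0.24 in males and -0.13 ± 0.24 in females. Over the alternatives the class I count ranged from 4 to 12 in males and from 1 to 10 in females.

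**Figure D5:**
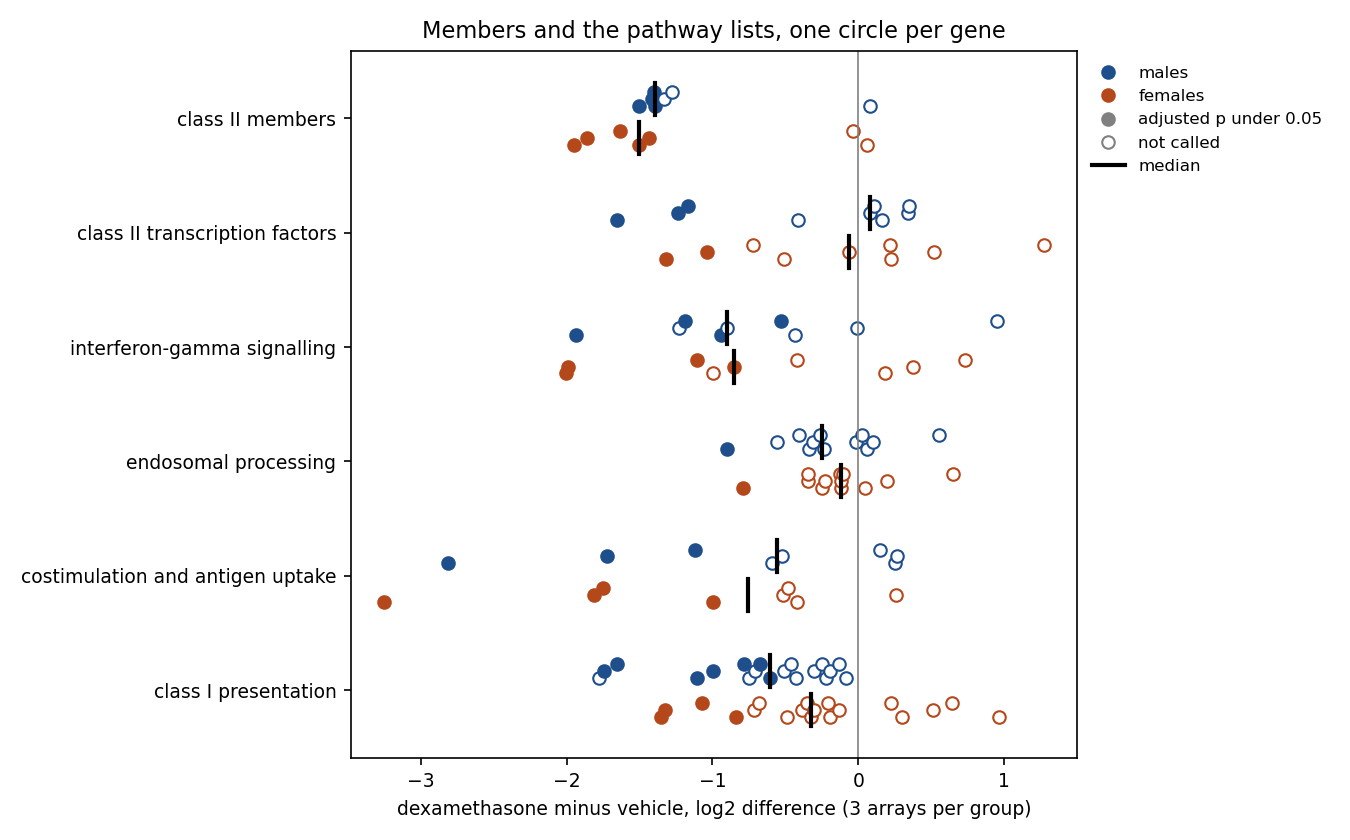
Dexamethasone minus vehicle, as log2 difference, of the 7 members and of the genes of 5 pathway lists, with 1 circle per gene (blue for males, red for females, filled where the adjusted p was under 0.05) and black bars for the medians. The member medians lie at -1.39 and -1.50, while those of the transcription factor list lie at 0.08 and -0.06.

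Markers of the leukocyte types listed differed in how many were called lower. Of 14 measured Kupffer cell and macrophage markers, 2 were lower in each sex (Aif1 and Tyrobp), near the share of all genes (10.8% in males and 12.6% in females). The other 12 were not called, and the medians of the 14 markers were -0.54 and -0.43. With slide as a fixed block the medians were -0.62 and -1.42, and within slide 5 they were -1.23 and -1.48. Their summed linear signal, in multiples of the array's 75th percentile, ranged from 109.9 to 150.7 in vehicle males, 69.0 to 169.3 in dexamethasone males, 109.2 to 175.3 in vehicle females and 78.4 to 141.9 in dexamethasone females, with overlap in both sexes. Of 5 measured B and plasma cell markers, 3 were lower in males and 4 in females, and their summed signal was 1.40 to 1.95 after vehicle against 0.429 to 0.830 after dexamethasone in males and 1.73 to 3.84 against 0.615 to 1.15 in females. Over the alternatives the Kupffer count ranged from 0 to 3 in males and 0 to 4 in females, the B cell count from 1 to 3 and 2 to 4, the dendritic count from 0 to 2 and 0 to 3, and the T and NK count from 3 to 5 and 5 to 10. With slide as a fixed block no dendritic marker was lower in either sex (limma), and the B cell medians were -1.26 in males and -1.98 in females against -2.05 and -2.31 without it. The B cell genes Ms4a1 and Cr2 were not well above background on any array. Of 4 measured dendritic cell markers, 2 were lower in each sex (Batf3 and Siglech). Their sums were 1.66 to 2.23 against 1.20 to 1.61 in males and 1.87 to 2.20 against 1.39 to 1.54 in females. Zbtb46 and Cd209a were not well above background on any array. Siglech was well above background on 6 of 12 arrays and Ccr7 on 7. Among the B cell markers Jchain, and among the T and NK markers Cd8a and Cd5, were so on 6, which limits these counts. Of 11 measured T and NK lymphocyte markers, 5 were lower in males and 9 in females, with sums of 5.16 to 6.57 against 3.08 to 3.54 and of 5.59 to 8.19 against 2.55 to 3.04.

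For the other cell types listed, 2 of 9 bile duct markers were lower in males and 3 in females, beside 10.8% and 12.6% of all genes. Their medians were -0.68 in males and -0.74 in females. Their summed signal ranged from 242.9 to 348.0 in vehicle males against 76.1 to 130.4 after dexamethasone. In females it ranged from 382.0 to 689.6 against 141.2 to 171.7. Such sums, here and above, weigh the brightest probes most. Under the fixed slide block the bile duct median moved from -0.68 to -0.93 in males and from -0.74 to -0.21 in females. The female value rests on replicate 3 as the only dexamethasone array. Of 7 endothelial markers 1 was higher in each sex (Lyve1) and 1 was lower in females, with medians of 0.07 in males and -0.48 in females. Their sums were 36.7 to 50.9 against 25.1 to 33.8 in males and 44.3 to 71.0 against 12.4 to 26.8 in females. The male sums fell while the male median did not. Of 10 hepatocyte markers none was called in males (limma) and 1 was lower and 1 higher in females. The part of these cells in the class II result was not tested.

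Outside the members, the genes whose profile over the 12 arrays was most like the mean member profile were Il1b (Pearson r = 0.97), Ifitm3 (0.97), Nckipsd (0.97), Sirpa (0.97), Npr1 (0.96), Rasl11a (0.96), Esyt1 (0.95) and Ets2 (0.95). The measure is a description over arrays that share treatment, sex and slide. All 8, which this measure picks for following a profile that falls with dexamethasone, were lower in both sexes. Under the fixed slide block Nckipsd lost its male call (adjusted p = 0.0588) and Ifitm3 its female one (adjusted p = 0.0594). Over the 24 alternatives Ifitm3 lost its call in 6 in males and 3 in females, Esyt1 in 2 in females, and Nckipsd and Rasl11a in 1 each in males. Il1b, the cytokine interleukin-1 beta, fell by 2.37 in males and 2.79 in females and Sirpa, a myeloid inhibitory receptor, fell by 2.76 and 2.73. Among the members themselves the correlation with their mean profile, which includes them, was 0.98 for RT1-Db1, 0.95 for Cd74, 0.93 for RT1-Da, 0.82 for Ciita, 0.81 for RT1-Bb, 0.44 for RT1-Ba and 0.22 for RT1-DMa.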

How the data were processed

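Per the labels, RNA pooled from 3 animals was labelled with Cy3 (500 ng per array) and hybridized to Agilent whole-genome rat arrays of 60-base probes. The submitters' processing notes name Agilent Feature Extraction 9.1. The deposited scanner files give spot intensity that this software had background-subtracted and detrended, per the file headers. The authors' deposited values on a log10 scale, whose normalization is not stated, were used as an alternative only.

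From the intensities, log2 of the processed signal minus the array's 75th percentile was computed. Control spots (1639) and outlier spots (211) were left out, and no probe was saturated. A probe was kept if 3 or more of the 12 arrays had it well above background, and the brightest stood for its gene. Group means were fitted with limma 3.58.1 in R 4.3.3 (with statmod 1.5.0 and version 1.17.8 of the data.table package), p-values were adjusted over all genes within each of 5 contrasts, and the script was tested on simulated data. Probes were named by accession or symbol through RefSeq's genes of GRCr8, and slides were read from the array barcodes. Sequences were aligned with Biopython 1.88 and figures drawn with matplotlib 3.10.9 and numpy 2.4.6 in Python 3.11.15.

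The members and lists were chosen with earlier results of these data known. All members and their probes were named, with every gene of the pathway lists called in either sex after dexamethasone and the 8 genes most like the mean member profile, except that some genes are not reported here. Alternatives changed the background correction, scaling, source of the values, dim-probe filter, choice of probe, arrays fitted, slide or replicate block, and left out each array. A fit without slide 5 was added after seeing the data. Replicate numbers were not used to pair the arrays in the main fit. Of 18 same-numbered pairs, 11 had deviations from their group means that correlated over 0.1 (range -0.0025 to 0.59). Replicate 3 of every group was on slide 5, so for it number and slide cannot be told apart.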

Additional observations from a re-analysis of the deposited data

How the results depend on the processing

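RT1-Da and RT1-Db1 were called lower in both sexes, and Cd74 in males, under all 24 alternatives, and Cd74 in females under all but the fit without slide 5. RT1-Bb lost its male call in 8 of 24 alternatives (adjusted p up to 0.108) and its female call with slide as a fixed block. Ciita lost its female call in 9 and gained a male call in 6. No called value reversed. With the arrays left out singly, the count of members called lower ranged from 3 to 4 in males and from 4 to 5 in females, and it stayed at 0 in the 3 other comparisons. Without slide 5, an alternative chosen after seeing the data, it was 3 in males and 3 in females. With the replicate number as a block, 5 members were called in males and 5 in females and 0 in the other comparisons, Ciita being the male call gained. Over all genes that fit called 6335 in males and 7730 in females, against 4895 and 5919 in the main fit. Calls thus rose across the array, so the gained call does not set Ciita apart. Whether the numbers pair the arrays is not settled. Of 12 arrays, 8 correlated best with an array of their own number, but replicate 3 of every group also shared slide 5.

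Counts over all genes moved more. In males 4895 genes were called, and 7749 with slide as a random block. In females 5919 were called, and 3086 with slide as a fixed block. For the difference of the effects 7 were called, 40 after normexp background correction with quantile normalization and 0 without a filter on dim probes or without slide 5. Between the sexes after vehicle the 415 calls became 165 with only the compared groups fitted, 252 with the fixed block, 263 without slide 5 and 654 with the random block. After dexamethasone the 561 calls became 849 with the replicate block, 870 without slide 5 and 919 with the random block. With 1 array left out the count over all genes ranged from 3679 to 5191 in males, from 3744 (without female dexamethasone 2) to 6069 in females, from 0 to 5 for the difference of the effects, from 261 to 403 between the sexes after vehicle and from 296 to 627 after dexamethasone. Signal near background limits what can be said of RT1-Ba, Ciita and the dim RT1-Db1 probe.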

Other observations

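Further probes whose deposited description names a class II antigen, but whose name in the file is not that of a member, numbered 8, and 7 of them passed the filter. Of these 7, 1 was called lower in males, where 10.5% of all probes were, and 4 in females, where 12% were. None was higher. The male count is near the share of all probes. AJ003232, described as an RT1-D beta1 chain of haplotype k, fell by 2.04 ± 0.49 in females (adjusted p = 0.0124) and was at -1.43 ± 0.49 in males (adjusted p = 0.0645). NP516920, a class II antigen entry, fell in females by 1.50 ± 0.40 (adjusted p = 0.0209) and in males by 1.26 ± 0.40 (adjusted p = 0.0492). NP516919 fell by 1.47 ± 0.41 in females and was at -1.09 ± 0.41 in males (adjusted p = 0.0883). TC623486 fell by 1.46 ± 0.29 in females and was at -0.88 ± 0.29 in males (adjusted p = 0.0593). NP516922 was at 1.19 ± 0.41 in females (adjusted p = 0.0570, groups without overlap) and at -0.39 ± 0.41 in males, and XM_228010 at -0.24 and 0.18, none of them called. RT1-DOb, the beta chain of the inhibitor of DM, was well above background on 3 arrays and was not called, and RT1-DOa, on 2 arrays, did not pass the filter. These probes may read the same transcripts as the members and are not independent of them.

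The second RT1-Bb probe was the only 1 of 41012 probes whose readings on male vehicle 3 and male dexamethasone 1 and 3 were all more than 3 log2 units below those on the other 9 arrays, the gap being 3.90. Being well above background on just those 9 arrays was shared by 16 probes, this one included. The 3 low arrays were chosen as those where this probe was not well above background. Neither count therefore shows how rare such a swing is.

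Besides Ifngr2, given above, some class I genes differed between the sexes. After dexamethasone, Psmb8 was higher in females by 1.63 ± 0.25 (adjusted p = 0.00648), Tap1 by 1.17 ± 0.24 (adjusted p = 0.0346) and Tap2 by 0.74 ± 0.16 (adjusted p = 0.0448), and after vehicle Psmb10 by 1.20 ± 0.22 (adjusted p = 0.0228).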
